A study of Homo sapiens with 2 samples.

Results

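KMT2D binding at 5 genes of the plasma cell programme, PRDM1, IRF4, XBP1, SDC1 and CD38, was described from the peaks listed around them in a lymphoma cell line. A peak belonged to a gene when its highest point lay in a window of 110 to 170 kb set for that gene on hg19, and 26 of the 24824 listed peaks did so. The windows held 10 peaks at IRF4, 6 at XBP1, 6 at CD38, 3 at PRDM1 and 1 at SDC1. The windows were set by position, and a peak's own values did not decide whether it was counted. The windows, genes and measures were, however, chosen with earlier results of these data known.

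The data came from OCI-LY7, an established human line of the germinal centre B-cell-like class of diffuse large B-cell lymphoma, labelled wild type in genotype. Cells were fixed with 1% formaldehyde for 10 min, and chromatin fragments of 200 to 400 bp were precipitated with an antibody to the N-terminal part of KMT2D. One precipitated library (n = 1) gave the peak list. An input library, prepared with no antibody from the same line (n = 1), was not analysed here. No replicate spread, test or p-value could therefore be had for any value, and the sequencing depth is unknown. A peak list carries no expression values, so the labelled cell type could not be checked against markers, and whether these genes were transcribed was not measured.

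KMT2D, also called MLL4, methylates lysine 4 of histone H3, mainly at enhancers, the regulatory elements that act on genes from a distance. In a germinal centre B cell the plasma cell programme is held down, and it starts when IRF4 rises and PRDM1 is switched on. PRDM1 then silences B-cell genes, XBP1 builds up the secretory machinery, and SDC1 and CD38 mark the surface of the resulting plasma cells; CD38 is also displayed by human germinal centre B cells.

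KMT2D peaks were denser in the 5 windows as a whole than along their chromosomes, and the windows differed widely among themselves. The 26 peaks over 660 kb came to 39.4 peaks per Mb (exact Poisson 95% interval 25.7 to 57.7), against 9.17 peaks per Mb at the densities of the same chromosomes, a ratio of 4.29 (2.81 to 6.29). These intervals cover counting error only, and neighbouring peaks are not independent. The IRF4 window held 83.3 peaks per Mb (39.96 to 153.3), against 8.18 on chromosome 6. The XBP1 window held 54.5 peaks per Mb (20.02 to 118.7), against 21.2 on chromosome 22, and the CD38 window 35.3 (12.95 to 76.8), against 4.47 on chromosome 4. The IRF4 and CD38 intervals lay above their chromosomes' densities. The PRDM1 window held 23.1 peaks per Mb (4.76 to 67.4), against 8.18 on chromosome 6. The SDC1 window held 7.69 peaks per Mb (0.195 to 42.9), against 7.07 on chromosome 2. In covered bases SDC1 alone lay below its chromosome, with 0.121% of the window under its 1 peak, against 0.512% of chromosome 2. At PRDM1, SDC1 and XBP1 the interval included the density of the chromosome. Chromosome spans include unassembled and gene-free stretches, whereas each window was placed on a gene, and copy number was not tested.

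**Figure D1:**
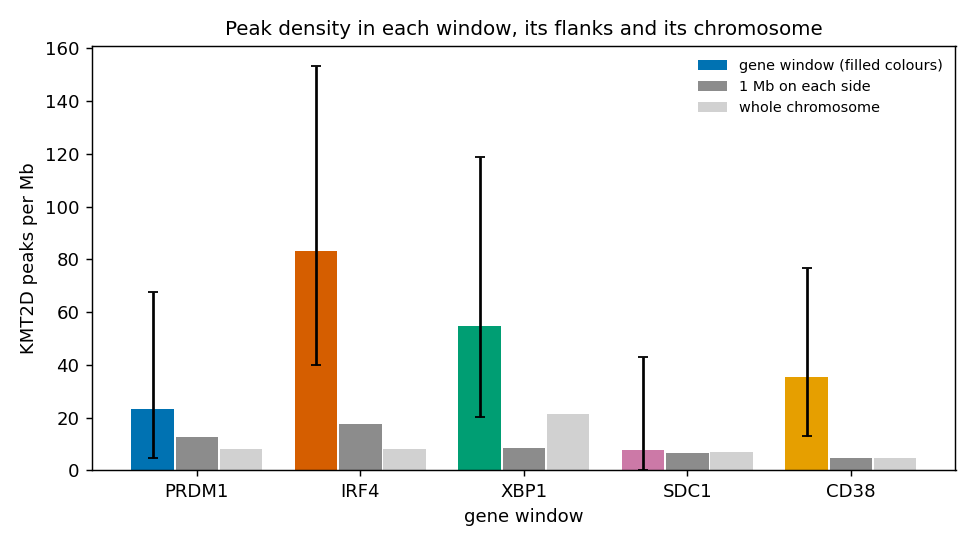
KMT2D peaks per Mb in each gene window (coloured bars, with exact Poisson 95% intervals that cover counting error only), in 1 Mb on each side of it (dark grey) and over the whole chromosome (light grey). The IRF4 window is the fullest at 83.3 peaks per Mb, and the SDC1 window at 7.69 is close to its chromosome at 7.07. The SDC1 value rests on 1 peak, which covers 0.121% of the window, against 0.512% of chromosome 2.

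Set against 1 Mb on each side of the window, a comparison chosen after seeing the data, the order of the windows changed. XBP1 lay in a sparse part of chromosome 22, with 17 peaks in 2 Mb of flank, and its window was 6.42 times as dense as that flank but 2.58 times as dense as the chromosome. IRF4 lay near the chromosome end, where 21 peaks fell in 1.19 Mb, and its window was 4.73 times as dense as the flank and 10.2 times as dense as the chromosome. The CD38 window was 7.84 times as dense as its flank and 7.90 times as dense as chromosome 4. The PRDM1 window was 1.85 times as dense as its flank, against 2.82 for the chromosome, and the SDC1 window was 1.18 times as dense, against 1.09. Cutting each chromosome into consecutive windows of the same width gave a further scale. On chromosome 6, 1.55% of 1423 windows of 120 kb held at least as many peaks as the IRF4 window. On chromosome 4, 3.38% of 1123 windows of 170 kb held at least as many as the CD38 window. On chromosome 22, 11.4% of 307 windows of 110 kb held at least as many as the XBP1 window. For PRDM1 the share was 14.1% of 1314 windows of 130 kb on chromosome 6. For SDC1 it was 34.3% of 1869 windows of 130 kb on chromosome 2, since 65.7% held no peak.

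Sequence next to the gene starts is given for the window with the most peaks (IRF4), the window with the tallest peak (CD38) and the window with the fewest peaks (SDC1). Each is the 250 bases before the outermost start in RefSeq on GRCh38.p14, read 5′ to 3′ on the strand of the gene. These positions are of another build than the peaks and cannot be set beside them, so whether a peak covered these bases was not determined. Capitals mark matches, on either strand, to GGGCGG (the GC box bound by SP1), CCAAT (bound by NF-Y), TATAAA (the TATA box) and GAANNGAA (spaced repeats of the kind that interferon regulatory factors bind).
IRF4, chr6:391502-391751, plus strand: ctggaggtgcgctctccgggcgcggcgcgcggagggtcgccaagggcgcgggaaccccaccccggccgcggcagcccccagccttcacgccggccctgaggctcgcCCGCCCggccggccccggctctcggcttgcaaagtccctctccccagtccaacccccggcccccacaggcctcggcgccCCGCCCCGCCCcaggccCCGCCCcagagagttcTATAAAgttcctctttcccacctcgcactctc
CD38, chr4:15778078-15778327, plus strand: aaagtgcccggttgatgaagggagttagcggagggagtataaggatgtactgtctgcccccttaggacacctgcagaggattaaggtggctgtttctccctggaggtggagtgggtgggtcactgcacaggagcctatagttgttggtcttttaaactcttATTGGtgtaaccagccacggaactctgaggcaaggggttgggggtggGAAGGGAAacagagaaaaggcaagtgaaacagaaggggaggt
SDC1, chr2:20225476-20225725, minus strand: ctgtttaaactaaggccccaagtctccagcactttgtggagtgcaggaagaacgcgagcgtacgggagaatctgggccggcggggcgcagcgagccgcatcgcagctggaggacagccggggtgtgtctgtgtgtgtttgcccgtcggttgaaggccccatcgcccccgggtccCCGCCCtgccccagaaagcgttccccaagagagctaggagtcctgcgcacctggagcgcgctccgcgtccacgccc
The stretch before IRF4 held 4 GGGCGG matches, of which a neighbouring pair overlap by 1 base, and 1 TATAAA match. The stretch before CD38 held 1 CCAAT match and 1 GAANNGAA match, and that before SDC1 held 1 GGGCGG match. Among 35097 RefSeq starts, 42.6% held GGGCGG, 32.0% CCAAT, 10.7% TATAAA and 16.2% GAANNGAA at least once in the same stretch. No single match was thus particular to these genes, and no share was taken for starts with 4 GGGCGG matches. IRF4 had 28 CpG dinucleotides and SDC1 23, while CD38 had 3, against a median of 11 over all starts. XBP1, with the outermost start used, had 31 CpG and 2 CCAAT matches, and the 2 listed PRDM1 starts had 11 and 7. As many CpG or more were held by 15.9% of all starts for IRF4, 25.8% for SDC1, 77.1% for CD38 and 10.9% for XBP1. A further start of XBP1 and of SDC1 each had 21. The starts of IRF4, XBP1 and SDC1, above the median in CpG, belonged to windows with 10, 6 and 1 peaks. The CD38 start, below the median, belonged to a window with 6. The PRDM1 window held 3. Whether CpG content near a start goes with the number of peaks in a window was not tested. The match letters describe these windows only and say nothing of which factors bind there.

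IRF4 encodes the interferon regulatory factor that drives B cells towards the plasma cell state at high level. Its window on chromosome 6, from 340000 to 460000, held 10 peaks in 2 groups. The protein-coding neighbours of the gene itself are DUSP22 and EXOC2. How far this window or the other 4 reach into neighbouring genes was not determined, so a peak counted for a gene may lie in or at its neighbour. The first was a run of 8 peaks from 354725 to 372975, over 18.3 kb, of which peaks covered 26.4%. From low to high position their heights, in the authors' units, were 31, 29, 39, 45, 22, 56, 54 and 36. Their widths were 404, 528, 932, 611, 110, 921, 675 and 643 bp. The run was tallest in its middle, where peaks of 921 bp (height 56) and 675 bp (height 54) stood 250 bp apart. The other group was a peak of 2559 bp at 390950 to 393509 with a height of 70, followed after 307 bp by a peak of 114 bp with a height of 21. The wide peak was the tallest and widest of the window and began 17.98 kb beyond the run. On chromosome 6 it was 20th by width but 186th by height among 1397 peaks. Its height was close to that of 15 other chromosome 6 peaks of like width (within 10%), whose median was 72 (interquartile range 63.5 to 81). Peaks over 2000 bp made up 1 of the 26 peaks, against a background of 2.22% of all peaks. Beyond the last of the 10, no peak was listed for 76.9 kb.

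The run of 8 peaks at IRF4 was among the larger clusters of its chromosome. With peaks up to 12500 bp apart joined, 15 of the 283 clusters on chromosome 6 (5.30%) had 8 or more peaks. The next cluster towards the chromosome end stopped 22.3 kb before the run, and its peaks lay outside the window. The number of peaks at IRF4 depended on how they were counted: 6 after peaks under 500 bp apart were merged, and 17 with the window widened by 25 kb on each side. A peak list does not say which of the neighbouring genes a peak acts on.

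PRDM1 encodes Blimp-1, the repressor that ends the B-cell programme. Its window on chromosome 6, from 106480000 to 106610000, held 3 peaks that formed 1 cluster of 13.6 kb. The gene's protein-coding neighbours are PREP and ATG5. The first, at 106532357 to 106532898, had a height of 33, and the second, at 106533849 to 106534577, had a height of 44. They stood 951 bp apart. The last, at 106545876 to 106545975, was 99 bp wide, the narrowest width in the whole list, with a height of 20. No peak was listed for 91.6 kb before this cluster or for 66.1 kb after it. The tallest of the 3 was at the 58.3rd percentile of height on chromosome 6, where the median was 37, and at 728 bp it was near the median of 46 for 130 other peaks of like width. No PRDM1 peak reached the tallest 25% of the chromosome's peaks, which began at a height of 56. Compared with IRF4 on the same chromosome, PRDM1 had fewer peaks (3, against 10) and fewer covered bases (1368 bp, against 7497 bp).

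XBP1 encodes the transcription factor that enlarges the endoplasmic reticulum for antibody secretion and is activated when its messenger RNA is spliced during the unfolded protein response. Its window on chromosome 22, from 29140000 to 29250000, held 6 peaks spread over 47.4 kb, as a lone peak, a cluster of 2 and a cluster of 3. The gene's protein-coding neighbours are CCDC117 and ZNRF3. The lone peak, at 29168380 to 29169527, was 1147 bp wide with a height of 68. A peak of height 40 at 29188493 to 29188940 and a peak of height 70 at 29196060 to 29196987 followed. The last 3 peaks lay between 29213469 and 29215765, with heights of 29, 34 and 29 and widths of 123, 263 and 115 bp. Both tall peaks were in the tallest 25% on chromosome 22, which began at 63, at the 80.8th and 83.1st percentiles. The 3 low peaks were at the 11.6th to 28.3rd percentiles, and the lowest height listed on this chromosome was 24. The taller of the 2 tall peaks was close to the median of 68 among 72 others of like width.

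SDC1 encodes syndecan-1 (CD138), the heparan sulphate proteoglycan by which plasma cells are usually sorted. Its window on chromosome 2, from 20350000 to 20480000, held 1 peak, at 20413632 to 20413789. The gene's protein-coding neighbours are LAPTM4A and PUM2. The peak was 157 bp wide with a height of 21, a score of 16.3 and a significance value of -17.01, where no listed peak was above -15. The nearest peaks were 161.5 kb before it and 136.1 kb after it. Among all 1718 peaks on chromosome 2, clustered ones included, 130 (7.57%) had both neighbours at least 136.1 kb away. Those 130 had a median height of 45, and 9 of them, this one included, were no taller than 21. Among all 700 lone peaks of chromosome 2, which include those 130, the median height was 47 and the median width 799 bp. Of the 700, 6.00% were no taller than 21. The SDC1 peak was thus lower and narrower than most lone peaks, while its height was ordinary for its width: 161 other chromosome 2 peaks of like width had a median height of 22 (interquartile range 21 to 24). It fell below 26, the lowest height that all chromosomes' lists have in common.

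CD38 encodes the surface enzyme that consumes NAD and is highly displayed on plasma cells. Its window on chromosome 4, from 15730000 to 15900000, held 6 peaks. The gene's protein-coding neighbours are BST1, which is related to it, and FGFBP1. A lone peak at 15730324 to 15730562 had a height of 21 and lay 0.413 kb inside the window's edge. The other 5 formed a cluster of 19.3 kb from 15767849 to 15787169. Their heights from low to high position were 28, 20, 30, 60 and 75, and their widths 196, 147, 543, 1535 and 1164 bp. The cluster thus ended with its tallest peaks, and the last was followed by 170.7 kb with no listed peak. Of the 175 clusters on chromosome 4, 15 (8.57%) had 5 or more peaks. Within the CD38 cluster, gaps of 170 and 122 bp separated peaks, and merging peaks under 500 bp apart left 4 of the window's 6. Cluster sizes were not compared after merging. The peak at 15786005 to 15787169, with a height of 75, was the tallest of the 26, and 2.27 times the chromosome's median of 33. It stood at the 91.6th percentile of chromosome 4 and at the upper quartile, 75, of 72 other peaks of like width, whose median was 57.5. The peak before it, at 15779483 to 15781018, was 1535 bp wide with a height of 60, near the median of 62 among 48 others of like width. These 2 peaks had the strongest significance values of the 26, at -58.2 and -55.96.

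**Figure D2:**
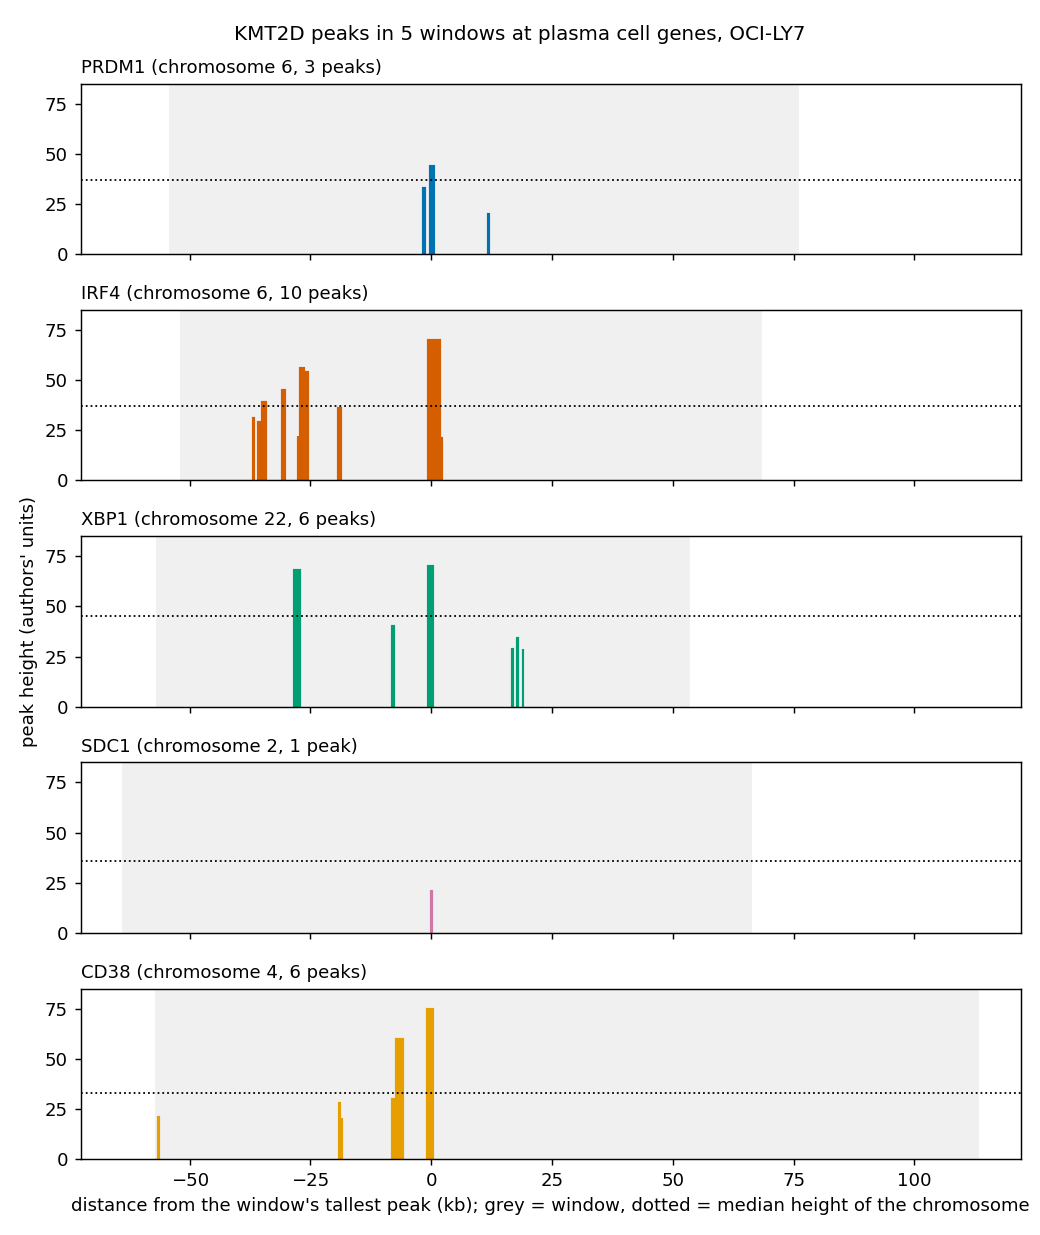
Height of each KMT2D peak (vertical axis, authors' units) against its distance in kb from the tallest peak of its window, with bars as wide as the peaks apart from a thin outline that keeps narrow peaks visible. Grey marks the window and the dotted line the median height of all peaks on that chromosome; IRF4 shows a run of 8 peaks before its 2559 bp peak, and the tallest peaks of CD38 and XBP1 reach 75 and 70.

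Peak height did not set the 26 peaks above the rest of the list. Their median height was 33.5 (95% interval of the median 29 to 45), against 39 over all 24772 peaks of chromosomes 1 to 22 and X, and it ran from 20 to 75, against 13 to 320. Within their own chromosomes, 10 of the 26 were at or above the median height, against a background of 50.9%. In the tallest 25% were 6 of 26 (23.1%; exact 95% interval 8.97 to 43.6%), against 25.5% of all peaks: 2 each at IRF4, XBP1 and CD38. This share was near the background. The IRF4 peak of height 56 was counted because it equalled the cut-off of chromosome 6. By average rank it stood at the 74.4th percentile. Their median width was 534.5 bp (196 to 728 bp), against 609 bp. Narrow peaks of at most 200 bp made up 8 of 26 (30.8%; 14.3 to 51.8%), against 21.0%. A significance value above -20, near the bound of the list, was held by 9 of 26 (34.6%; 17.2 to 55.7%), against 25.1%. Both intervals included the background. Each window held at least 1 narrow peak and at least 1 peak near the bound.

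**Figure D3:**
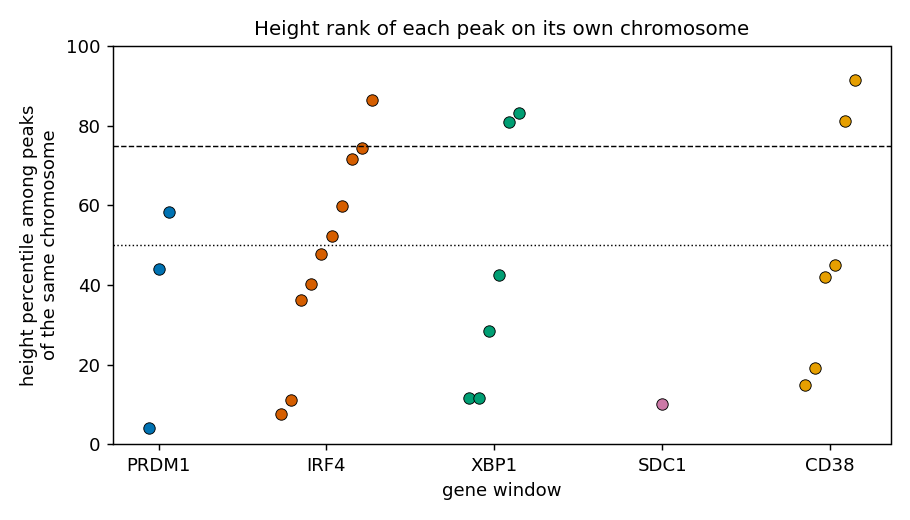
Height percentile (average rank for ties) of each of the 26 peaks among all peaks of its own chromosome, drawn in rising order within each window; dashed and dotted lines mark the 75th and 50th percentiles. IRF4, XBP1 and CD38 span the range from low to high, PRDM1 ends at the 58.3rd percentile, and the only SDC1 peak is at the 10.04th.

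**Figure D4:**
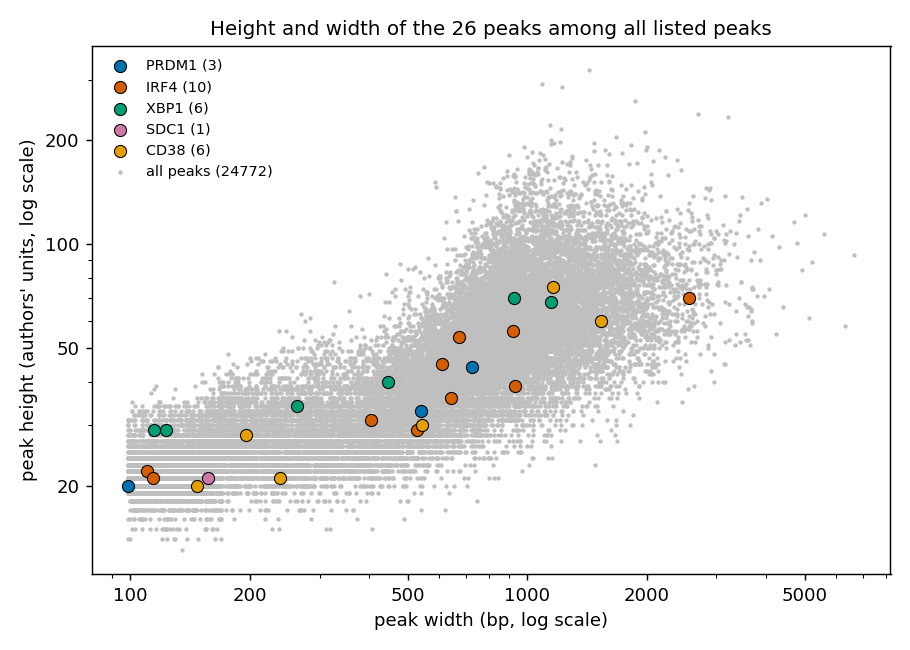
Height (authors' units) against width (bp) on log scales for the 26 peaks, coloured by window, and for all 24772 peaks of chromosomes 1 to 22 and X (grey). The 26 lie within the cloud of all peaks, from 99 bp and height 20 at PRDM1 to 2559 bp and height 70 at IRF4.

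The 26 peaks lay closer to other peaks than did the list as a whole. In clusters of 2 or more were 23 of 26 peaks (88.5%; exact 95% interval 69.8 to 97.6%), against 63.4% of all peaks. The 23 came from 6 clusters, and 10 of them from IRF4, so they are far fewer independent observations than 23. Without IRF4 the share was 81.3%, a comparison chosen after seeing the data. No interval was taken for that smaller set, so whether it differed from the background was not determined. The median distance to the nearest peak was 0.838 kb, against 4.66 kb over the list. A neighbour within 500 bp was found for 11 of 26 peaks (42.3%; 23.4 to 63.1%), against 27.3% of all peaks, with the background inside the interval. Those 11 lay at IRF4 and CD38. The peaks left alone were 1 each at XBP1, SDC1 and CD38, with heights of 68, 21 and 21.

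Score per unit of height and the place of the highest point were close to those of the list. Score per unit of height had a median of 0.640, against 0.623 over all peaks. The score itself, a positive value listed without a header, ran from 16.7 to 32.2 at IRF4 and 19.6 to 36.1 at XBP1. The score ran from 15.3 to 37.8 at CD38 and 16.7 to 24.4 at PRDM1. The lowest ratio, 0.443, belonged to the 2559 bp peak at IRF4, and the highest, 0.833, to the 99 bp peak at PRDM1. The highest point lay a median of 16.6 percentage points of the width from the peak's middle, against 14.9. In the 2 tall CD38 peaks, it lay 25.3% and 74.4% of the way from start to end, and these points stood 7 kb apart.

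Peaks just outside the windows bear on what was counted. At XBP1, a peak of height 81 at 29137532 to 29138524 lay 1.99 kb below the window, taller than any inside it. At PRDM1, a peak of height 34 at 106612088 to 106612831 lay 2.41 kb above the window. At IRF4, the nearest outside peaks had heights of 27 and 23, at 7.64 and 10.9 kb from the edges. At SDC1, the nearest had heights of 50 and 59, at 98.1 and 70.7 kb. At CD38 a peak of height 79 lay 46.9 kb below the window and a peak of height 19 lay 57.9 kb above it.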

How the data were processed

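One KMT2D ChIP-seq peak list from OCI-LY7 was analysed. Per the submitters' processing notes, CASAVA 1.8.2 and build hg19 were used; how reads were aligned, how peaks were called and whether the input was subtracted is not given in the sources used here. With 11 columns and no header, each column of the list was read from its values. The authors deposited per peak a position, a signal value (a whole number, read as height), a positive score, a negative score that resembles a logarithm of a p-value (the significance value), and the place of the highest point in percent of the width. Width equalled end minus start in all 24824 peaks. Positions are printed as listed; whether they count from 0 or 1 is not stated.

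Comparisons used the autosomes and X. Clusters joined peaks at most 12500 bp apart. Chromosome density was taken between the outermost peaks. Intervals are exact binomial, exact Poisson or order-statistic, at 95%, for counting error only. All genes of the rule are described, with the tallest, widest and edge peaks of each window. The windows, genes and measures were chosen with earlier results of these data known. No hg19 annotation was used, so planned distances to gene starts and a list of other plasma cell genes were not analysed here; gene order came from a GRCh38.p14 table. Functions were tested on simulated data. Versions were Python 3.11.15, matplotlib 3.10.9, scipy 1.17.1, pandas 2.3.3 and numpy 2.4.6.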

Additional observations from a re-analysis of the deposited data

How the results depend on the processing

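Each of 5 summary values was recomputed under the alternatives. A shift is counted where a value passed outside its counting interval or a count changed more than 1.5 times. This was so in 8 of 42 cases, all under a stricter score. Keeping the highest-scoring 50% of peaks left 10 peaks in the windows, with a median height of 58. Of these, 1 was in the tallest 25% of the kept peaks of its chromosome. That cut-off was set anew on the kept peaks, so it differs from the one used for the whole list. Keeping the highest-scoring 25% left 3 peaks, with a median height of 68 and 0 in the tallest 25% of the kept peaks. Clusters held 66.7% of these 3 peaks, and the density was 2.02 times that of the chromosomes, both recomputed on the kept peaks. No interval was taken for either value, and no clustered share over all kept peaks. Whether they differed from their background was therefore not determined. A smaller number of peaks follows from the cut itself. What moved the median height, the clustered share and the density was not tested. Counts by window, recomputed after seeing the data, shifted in 13 of 35 cases, among which IRF4 had 6 peaks after merging and 17 with wider windows, and SDC1 had 0 at the common minimum height of 26. Under the other alternatives the windows' density was 3.15 to 4.93 times that of the chromosomes or flanks. No paired analysis was possible because there was 1 ChIP library and no test. Since depth is unknown, a stretch with no listed peak may still be bound.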
